A study of Mus musculus with 9 samples.

Results

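The genes of the cytoplasmic ribosomal proteins, the protein parts of the large and small ribosomal subunits, were followed through both gene comparisons that the authors deposited. They were chosen by symbol alone: Rpl or Rps, then a number, then at most a letter a, x or y. The rule found 72 genes of the 22631 in the table of Mutant against Control cells and the same 72 of the 27775 in the table of PT against PUT. Of these, 43 encode proteins of the large subunit (Rpl) and 29 proteins of the small subunit (Rps). It misses 8 ribosomal protein genes with other kinds of symbol (Rplp0, Rplp1, Rplp2, Rpsa, Rps3a1, Fau and Rack1 among them), which are given beside the 72.

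A ribosome holds each of these proteins in a fixed place on its ribosomal RNA, so cells make the proteins in matched amounts. Their mRNAs are among the most abundant of a growing cell, and many begin with a run of pyrimidines, the terminal oligopyrimidine (TOP) tract, through which mTOR signalling and the TOP-binding protein Larp1 control translation. Most of these genes have left processed copies in the mouse genome, some of them identical to the parent in coding sequence, and reads from such stretches cannot be told apart by sequence.

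The cells were satellite cells, from which skeletal muscle regenerates, taken from the hindlimb muscles of 9-week-old mice and grown until activated. Mutant cells came from mice that the series calls Uhrf1-deficient in satellite cells and that received tamoxifen, per the labels' protocols 150 µl of a 20 mg/ml solution on each of 5 days. Control cells came from mice that received oil. Both were seeded at 5000 cells/cm2 and kept for 3 days, with 3 libraries in each group. Uhrf1 brings the maintenance DNA methyltransferase to newly copied DNA. The driver of the Cre recombinase and the genotype of the Control mice are not known from the labels, and the effect of tamoxifen cannot be told apart from that of Uhrf1 loss. Another group, Cre Control, also with 3 libraries and tamoxifen, was not analysed here. The labels do not say which groups PT and PUT are, so these arms are named only as the table names them. The labels do not tie libraries to single animals, so p-values measure only the spread between libraries, which may be technical.

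Gene values were deposited only as comparisons, so the depth of the libraries is unknown for genes and no value per library can be given. Each mean below is the authors' own, without SD. Uhrf1 averaged 20.4 TPM (a transcript level set per gene length and per library total) in Mutant and 118 TPM in Control cells in the authors' deposited table, with a log2 estimate of −3.12 (SE 0.60, adjusted p = 4.01e-06), and its estimate was −4.00 (SE 0.27) for PT over PUT. Of 7 muscle markers, all were present, and 2 were higher and 4 lower in Mutant cells at an adjusted p below 0.05. The 7 summed to 2431 TPM in Mutant and 2495 TPM in Control. Myod1, which was lower, alone had 914 TPM in Mutant and 1018 TPM in Control. Of 6 macrophage and leukocyte markers, 5 were listed, 2 were higher (Laptm5 and Cd68), and the list summed to 111 TPM in Mutant against 32.3 TPM in Control. Adgre1 was not listed and Ptprc stood at 0.303 TPM in Mutant and 0.381 TPM in Control. Of 4 endothelial markers 1 was higher and 2 were lower, and they summed to 6.51 TPM in Mutant and 7.86 TPM in Control. Of 4 fibroblast markers 0 were higher and 0 lower, and they summed to 52.8 TPM in Mutant and 50.6 TPM in Control. The part of such cells in the results below was not tested. Counts per repeat family were the only values per library. In them the endogenous retrovirus IAPEz-int took 9.29% to 16.3% of repeat counts in the Mutant libraries, and 0.501%, 0.675% and 13.1% in Control 1, 2 and 3. Control 3 therefore stood with the Mutant libraries by this measure, and whether it entered the Control means of the gene table is not given.

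The ribosomal protein genes had nearly the same summed level in Mutant and Control cells. In the authors' deposited table their mean TPM summed to 118780 in Mutant and 118899 in Control, which is 11.9% of all TPM in each. Large subunit genes held 6.48% in Mutant and 6.52% in Control, and small subunit genes 5.40% in Mutant and 5.37% in Control. No spread between libraries can be put on these shares.

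Single genes within the set differed widely in level. All 72 were above 100 TPM and 57 were at 1000 TPM or more, and the highest mean was 51.1 times the lowest. Rpl41, the smallest protein of the ribosome, led with 5876 TPM in Mutant and 6031 TPM in Control in the authors' deposited table. Rps2, which lines the channel where mRNA enters, had 4239.6 TPM in Mutant and 4294 TPM in Control. Rpl13a had 3407 TPM in Mutant and 3220 TPM in Control, and Rps14, a platform protein near the mRNA exit, had 3112 TPM in Mutant and 3192 TPM in Control. The 4 lowest rows were Rps27 (119.7 TPM in Mutant, 113 TPM in Control), Rpl5 (129 TPM in Mutant, 157 TPM in Control), Rpl12 (144 TPM in Mutant, 159.5 TPM in Control) and Rpl27 (160.2 TPM in Mutant, 209.7 TPM in Control). These 4 lie beside a row of another gene with the same coding sequence, described below, which held most of the pair's TPM. The median of the means was 1464 TPM for the large and 1899.8 TPM for the small subunit.

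**Figure D1:**
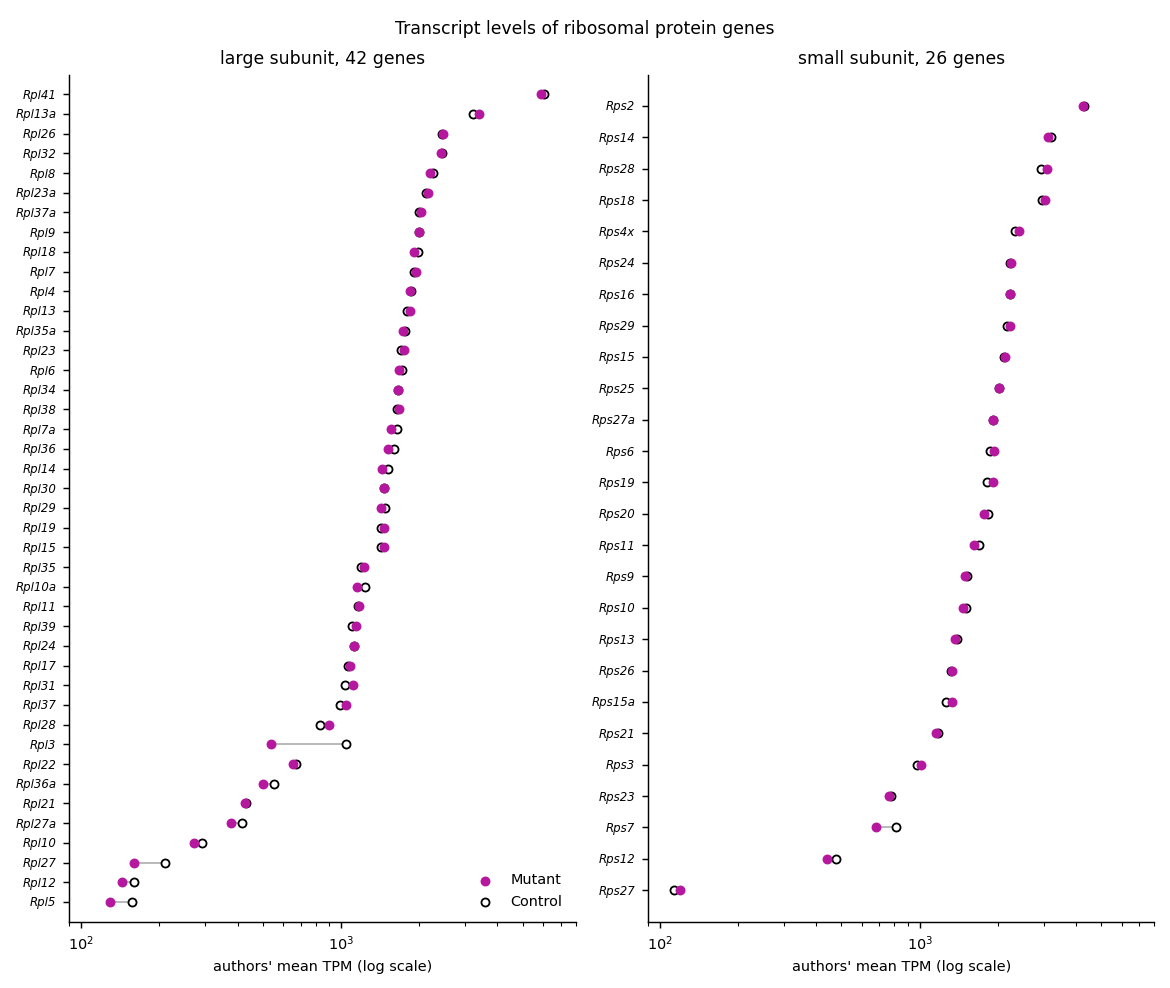
The authors' mean TPM of 68 of the 72 ribosomal protein genes in Mutant (filled) and Control (open) cells on a log axis, by subunit and ordered by level. For most genes both points lie on each other; Rpl3 (540.0 TPM in Mutant, 1049.6 TPM in Control), Rpl27, Rpl5 and Rps7 are apart.

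The first comparison asked which genes differed in Uhrf1-deficient cells. None of the 72 ribosomal protein genes was higher and 4 were lower in Mutant cells by the authors' deposited table and an adjusted p below 0.05. DESeq2 is among the tools in the submitters' processing notes. Without adjustment, 1 was higher and 7 were lower at a p below 0.05. Over all genes the background was 9.02% higher and 8.11% lower. Among the 1646 genes that averaged 100 TPM or more, the range in which all members lie, it was 14.8% higher and 36.2% lower. In bulk samples a difference in the number of cells of a type and a difference in RNA per cell cannot be told apart. The median log2 estimate (the deposited statistic times its standard error) was −0.02 over the 72, beside −0.09 over genes of at least 100 TPM and 0.01 over all genes. The quartiles of the members were −0.06 and 0.02, beside −0.25 and 0.07 for genes of at least 100 TPM.

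The deposited errors were small enough to bound most of these differences. For 64 of the 72 genes (88.9%) the whole 95% interval (estimate ± 1.96 SE) lay within a 1.2-fold change in either direction, against 643 of 1646 genes of at least 100 TPM (39.1%). These sets are not matched in level, with median levels of 1626 TPM for the members and 189 TPM for the larger set. Their median SE was 0.049 and 0.061. The SE lay between 0.042 and 0.089 for 69 members. It was above 0.1 for 3 members, namely Rpl3 (0.54), Rps7 (0.59) and Rps27 (0.89), so their intervals bound little. Rpl3, a protein beside the peptidyl transferase centre, had the lowest estimate, −0.98, which did not pass (adjusted p = 0.26) by the authors' deposited table.

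Few genes of either subunit passed. Of the large subunit genes 3 were lower and 40 did not pass, and of the small subunit genes 1 was lower and 28 did not pass. The median estimate was −0.02 for each, and the large minus small difference of medians was −0.01. No test was made of this difference, because genes are not replicates and no values per library were used.

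The 4 genes that passed were Rpl27, Rpl5, Rpl10a and Rps12. Rpl27, an outer protein of the large subunit, had 160.2 TPM in Mutant against 209.7 TPM in Control cells by the authors' deposited table (estimate −0.38, SE 0.09, adjusted p = 0.000135). Rpl5 carries the 5S ribosomal RNA into the large subunit together with Rpl11, and both can bind and inhibit Mdm2, the ubiquitin ligase of p53 (Trp53). Rpl5 had 129 TPM in Mutant against 157 TPM in Control by the authors' deposited table (estimate −0.23, SE 0.07, adjusted p = 0.00911). Rpl10a, of the stalk that handles departing tRNA, had 1148 TPM in Mutant against 1236 TPM in Control by the authors' deposited table (estimate −0.13, SE 0.05, adjusted p = 0.0359). Rps12, of the small subunit's head, had 439.6 TPM in Mutant against 478 TPM in Control by the authors' deposited table (estimate −0.20, SE 0.07, adjusted p = 0.0428).

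Most proteins grouped by place in the ribosome had estimates close to 0, as a description. Around the peptidyl transferase centre Rpl3 stood apart, as given above, while Rpl8 and Rpl10 had estimates of −0.05 and −0.12 (SE 0.05 and 0.07) and did not pass. Rpl11 had 1171 TPM in Mutant and 1165 TPM in Control (estimate −0.01, SE 0.05). The other proteins known to bind Mdm2, Rpl23 and Rps7, stood at 0.03 (SE 0.04) and at −0.37 (SE 0.59) by the authors' deposited table. At the mRNA entry channel Rps2, Rps3 and Rps9 had estimates of −0.03, −0.02 and −0.06. At the peptide exit tunnel and its mouth Rpl4, Rpl17, Rpl39, Rpl23a, Rpl26, Rpl31 and Rpl35 lay between −0.02 and 0.05. Of the X-linked genes, Rpl39 and Rps4x had estimates of 0.05 and 0.04, and Rpl10 and Rpl36a of −0.12 and −0.13, with SE of 0.04 to 0.08. Rps19, Rps26 and Rpl35a, 3 of the genes mutated in human Diamond-Blackfan anaemia, had estimates of 0.09, 0.00485 and −0.06 and did not pass. Rpl5, lower as given above, and Rpl11 are also among the genes mutated in that disease.

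**Figure D2:**
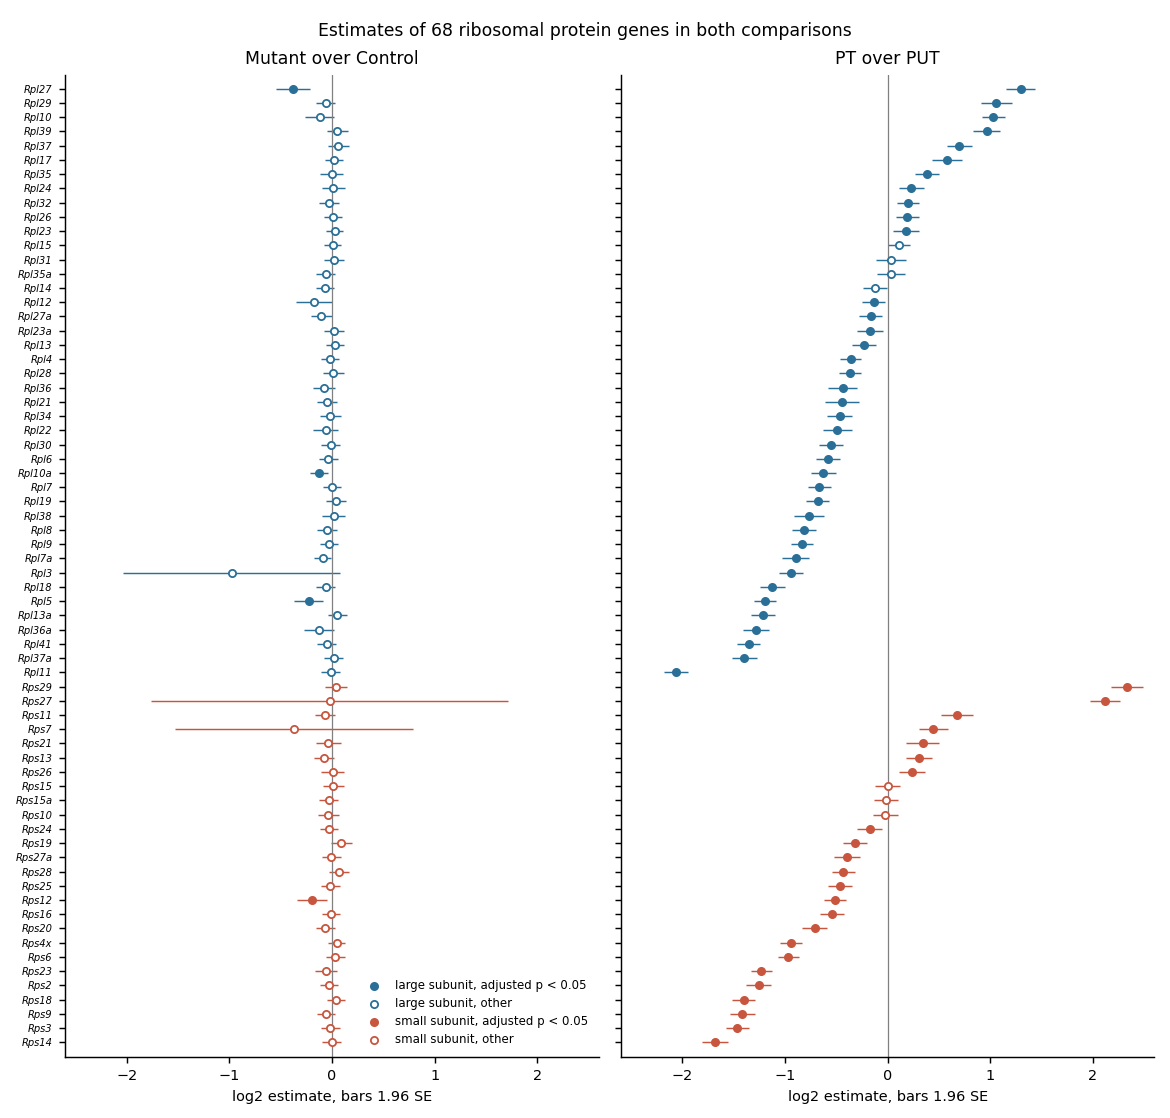
Log2 estimates with bars of 1.96 SE for 68 of the 72 ribosomal protein genes, Mutant over Control on the left and PT over PUT on the right, in the same order in both panels (large subunit above, small below, each by its PT over PUT estimate). Filled points have an adjusted p below 0.05: 4 on the left and 61 on the right, where the counts over all 72 are 4 and 65. The left panel lies close to 0 except for Rpl3, Rps27 and Rps7 with wide bars, while the right runs from −2.07 (Rpl11) to 2.33 (Rps29).

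Many members share their sequence with other rows of the same table. A row was counted as a near-identical copy where a transcript in the GENCODE M21 annotation matched at least 95% of bases over at least 50% of a member's coding sequence. For Mutant against Control, 64 of the 72 members had at least 1 such copy, 371 copies in all, of which 21 had 100 TPM or more in Control. The copies held 19.8% of the summed TPM of members and copies in Mutant and 19.2% in Control. For 52 members the gene's own row held at least 90% of the Control TPM, and for 13 it held less than 50%. The notes do not say how reads that match more than 1 place were counted.

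Of the 4 genes that passed, 3 were minor rows of such a pair. Rpl27 held 9.59% of its family's TPM in Mutant and 11.9% in Control. Its copy Rpl27-ps3, identical over all 408 coding bases, had 1466 TPM in Mutant and 1546 TPM in Control. Rpl5 (chr5:107900502-107909005, GRCm38, plus strand) held 6.67% of its family's TPM in Mutant and 8.04% in Control. Its copy Gm15500 (chr7:114705217-114706235, minus strand), identical over all 891 coding bases, had 1803 TPM in Mutant and 1792 TPM in Control. Rps12 held 10.2% in Mutant and 11.3% in Control, and its identical copy Rps12-ps3 had 3850.2 TPM in Mutant and 3721 TPM in Control. None of these copies passed the test in the authors' deposited table. Summed over gene and copies, the log2 ratio of mean TPM was −0.08 for the Rpl27 family, −0.01 for Rpl5 and 0.03 for Rps12. Rpl10a held 99.8% of its family in Control, and its family ratio was −0.08. The lowest family ratio was −0.14 (Rpl3), and 69 of 72 lay within 0.1 of 0, against 59 of 72 for the members' own rows. These sums have no error. Of the 371 copies, 1 passed the test, Gm6286, a copy of Rpl7a with 1.11 TPM in Mutant and listed at 0 in Control.

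Rpl3 and its main copy had values on opposite sides of 0. Rpl3 (chr15:80077791-80091868, GRCm38, minus strand) had 540.0 TPM in Mutant against 1049.6 TPM in Control in the authors' deposited table, while its copy Rpl3-ps1 (chrX:13202571-13203780, plus strand) had 1094 TPM in Mutant against 750.0 TPM in Control. The estimates were −0.98 (SE 0.54) for the gene and 0.54 (SE 0.27, adjusted p = 0.193) for the copy, and neither passed. Of the 1209 coding bases 2 differ, C57A and T786C (gene base, position counted from 1 at the A of the start codon, copy base). The stretch of 100 bases from position 27 to 126 is shown because it holds the first of these, in capitals in the copy. A read from the coding sequence that covers neither of the 2 bases would match both.
Rpl3: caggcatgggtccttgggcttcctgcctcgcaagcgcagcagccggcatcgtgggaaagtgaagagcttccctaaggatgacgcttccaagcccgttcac
Rpl3-ps1: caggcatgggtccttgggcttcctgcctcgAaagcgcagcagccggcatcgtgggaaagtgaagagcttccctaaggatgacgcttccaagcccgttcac
Rps7 and its copy Gm6472 gave a like pattern of mean TPM, but neither passed. The Rps7 estimate was −0.37 (SE 0.59, adjusted p = 0.887) by the authors' deposited table. Rps7 had 677 TPM in Mutant and 808 TPM in Control, while Gm6472 had 1141 TPM in Mutant and 931 TPM in Control, and the family ratio was 0.07.

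**Figure D3:**
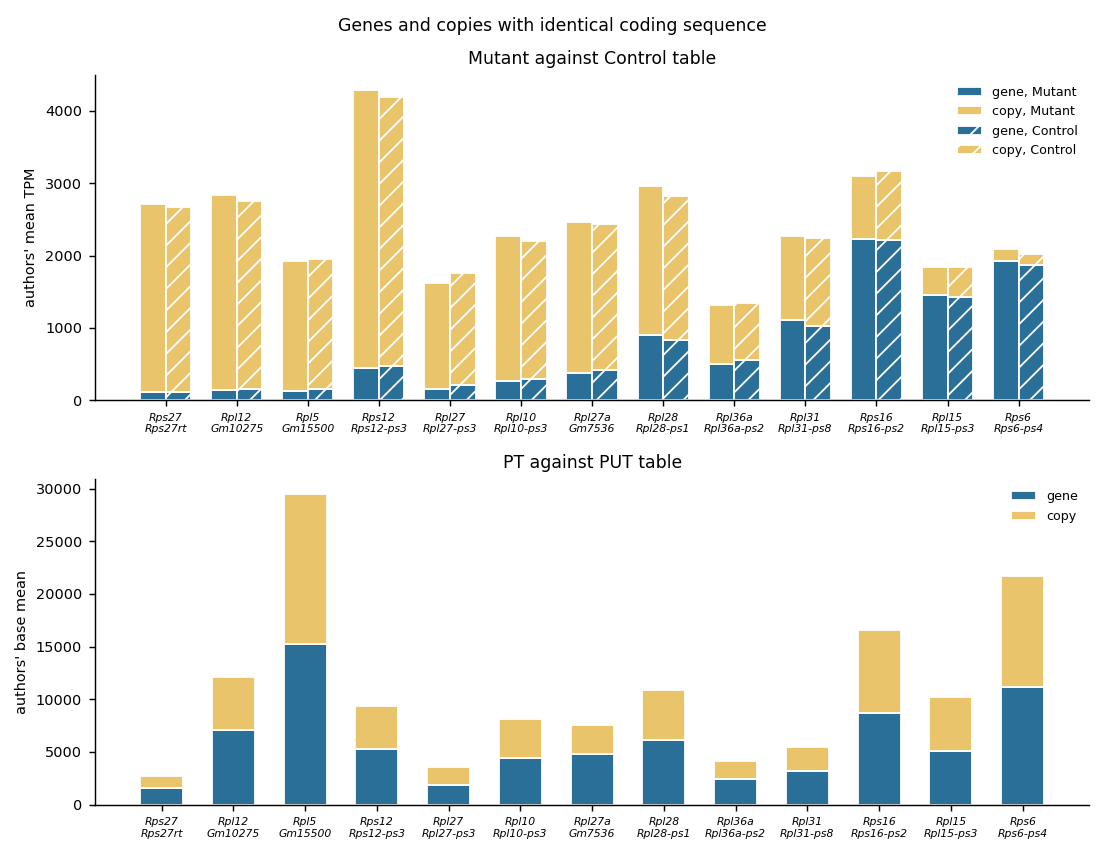
Stacked mean levels of the 13 genes that have a copy identical over the whole coding sequence with at least 100 TPM in Control: TPM in Mutant (left bar) and Control (right, hatched bar) above, base mean of the PT against PUT table below. In TPM the copy holds 7.71% (Rps6-ps4) to 95.8% (Rps27rt) of the Control sum, while in base mean it makes up 35.7% to 50.7% of the pair's sum. Whether the same reads were counted in both rows is not given.

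Of the 8 ribosomal protein genes that the symbol rule misses, none passed the test in the authors' deposited table, at an adjusted p below 0.05 or at an unadjusted p below 0.05, and their estimates lay between −0.02 and 0.05. They include the stalk proteins Rplp0 (2872 TPM in Mutant, 2753 TPM in Control), Rplp1 and Rplp2.

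Among 8 paralogs listed, genes that encode a second form of a ribosomal protein, 1 was higher and 2 were lower. Rps27l, a paralog of Rps27 known as a target of p53, had 898 TPM in Mutant against 707 TPM in Control by the authors' deposited table (estimate 0.34, SE 0.06, adjusted p = 7.29e-07). Rpl22l1, the paralog of Rpl22, had 404 TPM in Mutant against 502 TPM in Control by the authors' deposited table (estimate −0.32, SE 0.07, adjusted p = 0.000211). Rpl7l1 had 115 TPM in Mutant against 128 TPM in Control by the same table of the authors (estimate −0.17, SE 0.06, adjusted p = 0.0354). Rpl22 itself had 656 TPM in Mutant and 671 TPM in Control and did not pass.

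The Rps27 family holds 3 genes. Rps27 (chr3:90212522-90213651, GRCm38, minus strand) and Rps27rt (chr9:114982366-114982739, minus strand) share all 252 coding bases. Rps27rt had 2596 TPM in Mutant and 2554 TPM in Control, where Rps27 had 119.7 TPM in Mutant and 113 TPM in Control (estimate −0.02, SE 0.89). Rps27l (chr9:66946086-66949516, plus strand) differs from both at 60 of the 252 bases. The coding sequences, from GENCODE M21 and without the stop codon, are shown because they set which of the 3 rows reads can be told apart, with each base that differs from Rps27 in capitals.
Rps27: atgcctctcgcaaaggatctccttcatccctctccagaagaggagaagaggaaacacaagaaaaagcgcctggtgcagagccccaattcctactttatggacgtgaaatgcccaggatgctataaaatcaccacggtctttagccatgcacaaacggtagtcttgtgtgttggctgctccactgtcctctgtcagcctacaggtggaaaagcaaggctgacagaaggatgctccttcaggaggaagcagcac
Rps27l: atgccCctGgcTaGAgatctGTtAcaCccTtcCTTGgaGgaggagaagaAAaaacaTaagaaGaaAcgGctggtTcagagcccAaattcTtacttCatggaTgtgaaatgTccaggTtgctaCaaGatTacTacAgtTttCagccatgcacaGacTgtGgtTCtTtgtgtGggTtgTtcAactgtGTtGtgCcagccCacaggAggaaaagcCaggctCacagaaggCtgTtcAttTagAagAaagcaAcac
The differences are spread along the whole sequence, so reads of Rps27l can be told from those of Rps27 and Rps27rt, while Rps27 and Rps27rt can be told apart only outside the coding sequence.

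Some members have a run of pyrimidines like that of the TOP tract at or near an annotated start site. RefSeq windows (GRCm38.p6) were at hand for 53 of the 72 members, which is 73.6%, so a check over the whole set is void. The tract was searched on the gene's own strand as a C followed by at least 4 pyrimidines, touching the 5 bases on either side of the annotated start, and 24.8% of all 32851 windows hold it. A run found this way may end before the start or begin after it. Of the 63 windows of these members, 31 hold it, in 29 of the 53 genes. The stretches below run from 40 bases before to 20 bases after the start, with the longest tract found in capitals. The first 4 are members picked because they have such a run, which in Rpl13a begins after the start. Rps27l is the paralog that rose, and at the annotated start shown its run ends before the start. The last 3 are the members with a lower row in Mutant cells and a large identical copy. In these no run was found in the searched bases.
Rps6 (chr4:86857348-86857407, minus strand): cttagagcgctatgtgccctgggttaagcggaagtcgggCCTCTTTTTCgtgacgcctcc
Rps18 (chr17:33955646-33955705, minus strand): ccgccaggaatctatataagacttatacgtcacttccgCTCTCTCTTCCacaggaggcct
Rpl13a (chr7:45128726-45128785, minus strand): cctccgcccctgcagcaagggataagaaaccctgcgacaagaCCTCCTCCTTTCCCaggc
Rps27 (chr3:90213629-90213688, minus strand): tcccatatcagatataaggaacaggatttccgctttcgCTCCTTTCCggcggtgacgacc
Rps27l (chr9:66946046-66946105, plus strand): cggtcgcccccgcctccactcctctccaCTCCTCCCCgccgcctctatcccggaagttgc
Rpl27 (chr11:101442205-101442264, plus strand): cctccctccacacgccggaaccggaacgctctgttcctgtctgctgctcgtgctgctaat
Rpl5 (chr5:107900488-107900547, plus strand): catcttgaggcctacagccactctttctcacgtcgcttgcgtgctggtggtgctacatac
Rps12 (chr10:23787190-23787249, minus strand): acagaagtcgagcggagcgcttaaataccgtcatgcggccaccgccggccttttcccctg
At the other annotated start of Rps27l no tract was found. In the last 3 stretches runs of the same kind lie outside the searched bases and are not in capitals. They lie after the start in Rps12 and before it in Rpl5 and Rpl27. A match is a description of the letters at these starts, and none found says only that they are not in the searched bases.

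Many of the genes that build ribosomes were lower in Mutant cells. Of 54 assembly factors listed, the proteins that process ribosomal RNA and put subunits together, 38 were lower and 0 higher in Mutant cells in the authors' deposited table (45 lower and 1 higher at an unadjusted p below 0.05), with a median estimate of −0.27. They included Rrp9 (92.4 TPM in Mutant, 124 TPM in Control, estimate −0.50), Tcof1 (46.9 TPM in Mutant, 67.0 TPM in Control, estimate −0.48) and Dkc1, the pseudouridine synthase of box H/ACA particles (173 TPM in Mutant, 238 TPM in Control, estimate −0.48). Nearest to 0 among those that passed were Utp4 (−0.17), Pes1 (−0.20) and Bop1 (−0.20). Of 15 genes of RNA polymerase I and its factors, 4 were lower (26.7%) and 1, Ttf1, was higher (6.67%). The lower ones were Polr1b (39.4 TPM in Mutant, 54.6 TPM in Control), Polr1a, Ubtf and Taf1d.

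Translation factors that passed were lower too. Of 32, 16 were lower and 0 higher in the authors' deposited table (18 lower and 0 higher at an unadjusted p below 0.05), with a median of −0.13. Eif4e, which binds the cap of mRNAs, had 231 TPM in Mutant against 298 TPM in Control (estimate −0.41, SE 0.05), followed by Eif3j1 (−0.35) and Eif2s2 (−0.28). Nearest to 0 among those that passed were Eif4g2 (−0.14), Eif3d (−0.15) and Eif5 (−0.15). Of 78 proteins of the mitochondrial ribosome, a separate machine, 18 were lower and 0 higher (25 lower and 0 higher at an unadjusted p below 0.05), with a median of −0.16. Mrpl12 had the lowest estimate, −0.60, with 108 TPM in Mutant against 163 TPM in Control, followed by Mrps5 and Mrpl55 (−0.43 and −0.42). Nearest to 0 among those that passed were Mrpl51 (−0.24), Mrpl15 (−0.25) and Mrpl37 (−0.26). The lower share was 70.4% of the assembly factors, 50% of the translation factors, 26.7% of the RNA polymerase I genes and 23.1% of the mitochondrial ribosomal proteins. The backgrounds given above were 8.11% over all genes and 36.2% over genes of at least 100 TPM. The RNA polymerase I and mitochondrial shares lie below the second of these, which is not matched to them in level. Its median level was 189 TPM, beside 41.0 TPM for the RNA polymerase I genes and 61.5 TPM for the mitochondrial ribosomal proteins. The medians were 90.6 TPM for the assembly factors and 294 TPM for the translation factors. No test was made of the difference between these lists and the ribosomal proteins.

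Of 19 regulators of ribosome production, 4 were higher and 4 lower (21.1% each) in the authors' deposited table. The backgrounds were 9.02% higher and 8.11% lower over all genes, and 14.8% higher and 36.2% lower over genes of at least 100 TPM. The second is not matched in level, as the regulators had a median level of 44.5 TPM. Mdm2 had 346 TPM in Mutant against 154 TPM in Control (estimate 1.04, SE 0.14, adjusted p = 2.14e-12). Ddit4 and Sesn2, which restrain mTORC1, had 45.8 and 25.1 TPM in Mutant against 15.8 and 14.3 TPM in Control (estimates 1.51 and 0.80). Tsc2 was the other one that rose. Larp1 had 120 TPM in Mutant against 145 TPM in Control (estimate −0.29, SE 0.04, adjusted p = 1.85e-09), and Rptor, the mTORC1 subunit that recruits substrates, had 41.7 TPM in Mutant against 52.5 TPM in Control (estimate −0.30). Eif4ebp1 (−0.24) and Eif4ebp2, which hold back Eif4e, were the other 2 that fell.

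**Figure D4:**
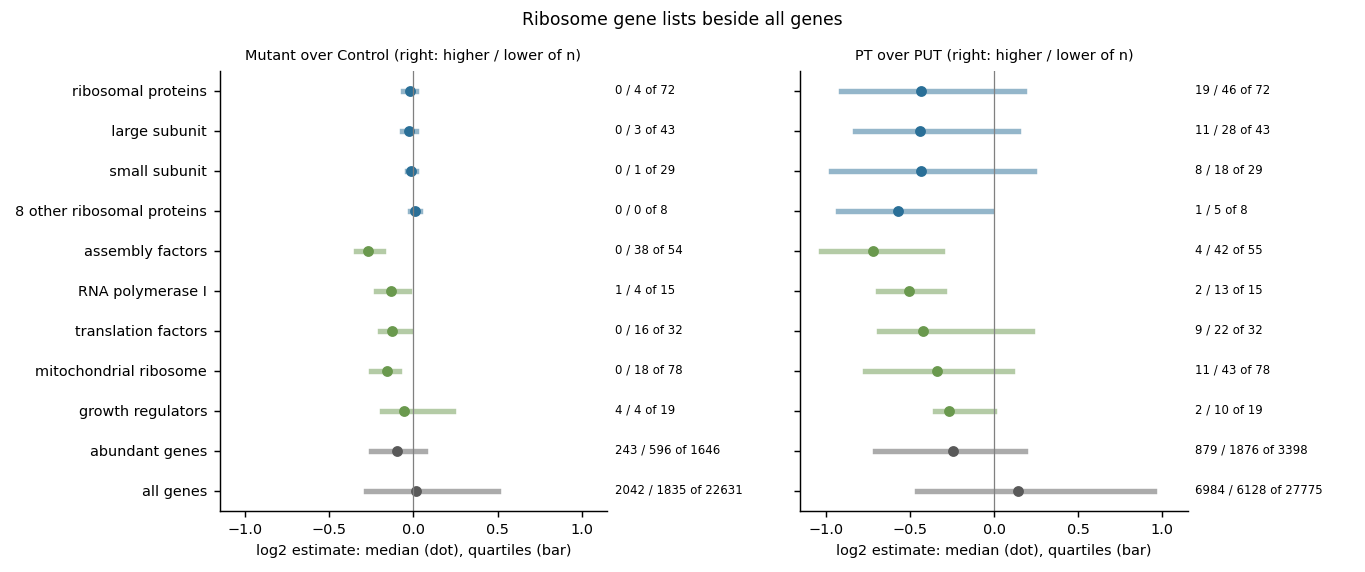
Median (dot) and quartiles (bar) of the log2 estimates of each gene list, Mutant over Control on the left and PT over PUT on the right, with the counts of genes higher and lower at an adjusted p below 0.05. On the left the ribosomal proteins lie at 0 with a narrow bar while assembly factors lie at −0.27; on the right the ribosomal proteins have a median of −0.44 and a bar from −0.91 to 0.18.

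In the second comparison, PT against PUT, nearly every ribosomal protein gene passed the test, in both directions. Of the 72, 19 were higher and 46 lower in PT in the authors' deposited table at an adjusted p below 0.05, and 7 did not pass. The backgrounds were 25.1% higher and 22.1% lower over all genes, and 25.9% higher and 55.2% lower among the 3398 genes with a base mean (the authors' mean of normalised counts) of at least 1000, where all members lie. The members' shares, 26.4% higher and 63.9% lower, are near that second background. The median estimate was −0.44, beside −0.25 over genes with a base mean of at least 1000 and 0.14 over all genes. The estimates had an SD of 0.85 across the members, with a median SE of 0.06 each, and the same SD was 0.76 over genes with a base mean of at least 1000. Centring on the median of genes with a base mean of at least 100, −0.12, changed the direction of 0 of the 65 calls.

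Markers of cell types also differed in this comparison, and their part in the values of the ribosomal proteins was not tested. Of the 7 muscle markers 6 were lower in PT in the authors' deposited table, from Itga7 (−1.09) to Myod1 (−0.15), and Myf5 was higher (0.83). Of 4 macrophage and leukocyte markers listed, Laptm5 (2.00, base mean 554.7) and Fcer1g (4.65, base mean 29.4) were higher, Csf1r was lower (−0.46) and Cd68 did not pass, while Ptprc and Adgre1 were not listed. Of 4 fibroblast markers Dcn (4.04, base mean 5.63) and Pdgfra (1.38) were higher and 2 did not pass. Of 4 endothelial markers Cdh5 was higher (1.96, base mean 12.8) and 3 did not pass.

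The higher genes were led by small proteins of the small subunit. Rps29, a zinc-binding protein of the head, had an estimate of 2.33 (SE 0.08, adjusted p = 2.01e-188) by the authors' deposited table, and Rps27 of 2.12 (SE 0.07). Rpl27 (1.30) and Rpl29 (1.06) were also higher, and Rpl10, of the peptidyl transferase region, stood at 1.03 (SE 0.06). The lower genes were led by Rpl11, the partner of Rpl5, at −2.07 (SE 0.06, adjusted p = 4.54e-257) by the authors' deposited table. Rps14 (−1.68), Rps3 (−1.46) and Rps9 (−1.41) were also below −1. Of all members 6 were above 1 and 14 below −1.

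Neighbouring proteins did not always share a direction in PT. At the mRNA entry channel Rps2, Rps3 and Rps9 were all lower, at −1.26, −1.46 and −1.41. At the mRNA exit and platform, Rps14 (−1.68) and Rps28 (−0.43) were lower, while Rps26 was higher (0.24). At the peptide exit tunnel and its mouth, Rpl17 (0.58), Rpl39 (0.97), Rpl35 (0.38) and Rpl26 (0.19) were higher, Rpl4 (−0.36) and Rpl23a (−0.18) were lower, and Rpl31 (0.03) did not pass. Around the peptidyl transferase centre Rpl3 (−0.94) and Rpl8 (−0.82) were lower while Rpl10 was higher. Both proteins that carry the 5S RNA were lower, Rpl5 at −1.19 and Rpl11 at −2.07, while the other Mdm2 binders, Rpl23 (0.18) and Rps7 (0.45), were higher. The X-linked genes were split too, with Rpl10 and Rpl39 higher and Rpl36a (−1.28) and Rps4x (−0.94) lower. Of the Diamond-Blackfan genes, Rps19 (−0.32), Rpl5 and Rpl11 were lower, Rps26 was higher and Rpl35a (0.03) did not pass. All these values are estimates of the authors' deposited table.

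The subunits had near-equal medians. Of the large subunit genes 11 were higher and 28 lower, and of the small subunit genes 8 were higher and 18 lower. The medians were −0.44 and −0.43, a difference of −0.01, while the estimates had an SD of 0.74 within the large and 1.01 within the small subunit. This comparison of subunits has no test for the reason given above.

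The longest members had the lowest median in PT. Among the 24 members with 564 to 1257 coding bases, 2 were higher and 20 lower in the authors' deposited table, with a median of −0.83. Among the 25 shortest, with 75 to 405 coding bases, 9 were higher and 13 lower, with a median of −0.17, and among the 23 between them 8 were higher and 13 lower, with a median of −0.16. The background among genes with a base mean of at least 1000 was 25.9% higher and 55.2% lower. Across the 72 genes Spearman's rho of the estimate and coding length was −0.33, as a description of genes that share the same libraries. For Mutant over Control it was −0.13. Spearman's rho of the PT over PUT estimate and the mean TPM of Mutant and Control cells was −0.30. Whether length or level goes with these values was not tested.

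**Figure D5:**
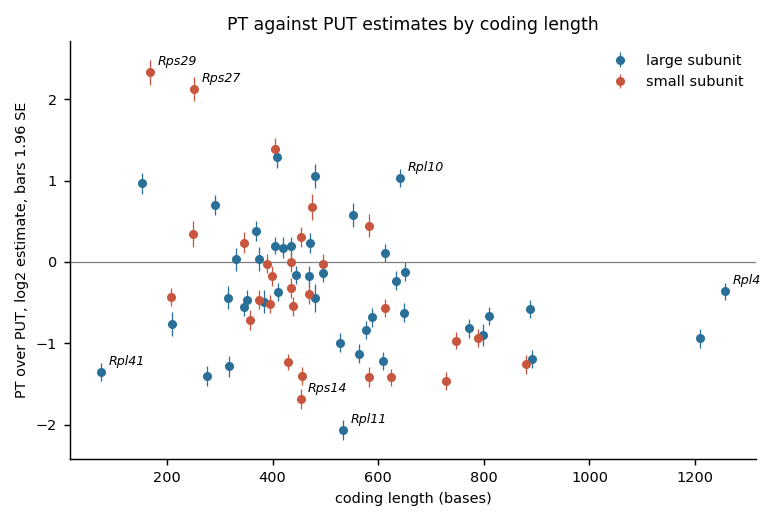
PT over PUT log2 estimates (bars 1.96 SE) against coding length in bases for the large and small subunit genes. Members above 564 coding bases lie mostly below 0, with Rpl10 (1.03) as the highest of them, while shorter members span the whole range from −2.07 to 2.33.

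Many near-identical copies had large base means in this table. The copies of members made up 67.0% of the summed base mean of members and copies, and 273 of 578 copies had a base mean of at least 1000. Base mean is not set per length and TPM is, so the 67.0% is not directly comparable with the 19.2% to 19.8% of TPM. Whether a read that matches several rows was counted in each of them is not given, so these shares need not be a division of reads. For the 13 pairs with identical coding sequence the copy made up 35.7% to 50.7% of the pair's summed base mean, against 7.71% to 95.8% of its Control TPM. Rpl5 and Gm15500, for example, had base means of 15221 and 14233, and Rps27 and Rps27rt of 1613 and 1106. Of the 273 abundant copies 235 had an estimate with the sign of their member's, with which they share sequence, and Rps27rt stood at 2.63 beside 2.12 for Rps27. How far the value of a single member rests on reads of its copies was not tested.

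Of the 8 genes that the symbol rule misses, 5 were lower (62.5%) and 1 was higher (12.5%) in PT in the authors' deposited table. The background with a base mean of at least 1000, where all 8 lie, was 55.2% lower and 25.9% higher. The lower ones were Fau (−1.18), Rpsa (−0.99), Rps3a1 (−0.91), Rplp2 (−0.72) and Rplp0 (−0.42), while Rplp1 and Rack1 did not pass. Fau encodes a ubiquitin-like protein fused to a ribosomal one. Rps27a, which encodes ubiquitin itself fused to a ribosomal protein, stood at −0.39. Of 7 paralogs listed, Rps27l (1.11), Rps27rt and Rpl39l (7.23, SE 1.28, with a base mean of 13.4) were higher, and Rpl36al (−0.68), Rpl7l1 (−0.64) and Rpl22l1 (−0.53) were lower.

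Assembly factors were mostly lower in PT as well. Of 55, 42 were lower and 4 higher in the authors' deposited table, with a median of −0.72. The lower share was 76.4%, beside the backgrounds of 22.1% over all genes and 55.2% over genes with a base mean of at least 1000. In the lists that follow, 86.7% of the RNA polymerase I genes, 68.8% of the translation factors and 52.6% of the regulators were lower. The lowest were Eif6 (−1.52), Mrto4 (−1.52) and Ebna1bp2 (−1.48), all of the large subunit's assembly, and the highest were Nop10 (1.55), Pno1 (0.80) and Dimt1 (0.36). Of the 15 RNA polymerase I genes 13 were lower and 2 higher (Twistnb 0.87, Taf1d 0.61), with Rrn3 (−0.23) the lower one nearest to 0 and Znrd1 lowest at −1.55, then Ubtf (−1.10) and Polr1d (−0.73). Of 32 translation factors 22 were lower and 9 higher, from Eef1d and Eef1b2 (both −1.47) and Eef1g (−1.42) to Eif2s2 (0.75), Eif3j1 (0.82) and Eif3e (1.11). Of 78 mitochondrial ribosomal proteins 43 were lower (55.1%) and 11 higher (14.1%), from Mrps26 (−1.78), Mrpl9 (−1.50) and Mrpl21 (−1.36) to Mrpl32 (1.16), Mrpl42 (1.53) and Mrps36 (2.08). Their median base mean was 373, and that of the RNA polymerase I genes was 483. The second background, of at least 1000, is therefore not matched in level to either list. Of 19 regulators 10 were lower and 2 higher. They ranged from Maf1 (−0.79), Rptor (−0.56) and Tsc1 (−0.40) to Deptor (0.49) and Rps6kb1 (0.65), and Mdm2, at −0.25 (SE 0.07), was the lower one nearest to 0.

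Set side by side, the 4 members with a lower row in Mutant cells had PT over PUT estimates of 1.30 (Rpl27), −1.19 (Rpl5), −0.63 (Rpl10a) and −0.52 (Rps12) in the authors' deposited table. Rps29, with the highest PT over PUT estimate, had 2231 TPM in Mutant and 2169.9 TPM in Control (estimate 0.04, SE 0.05). Rpl11, with the lowest, had an estimate of −0.01 for Mutant over Control. Whether the comparisons share libraries is not given, so no overlap or correlation between them is reported.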

How the data were processed

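The members and gene lists were chosen with earlier results of these data known; the role groups and the search for copies were added after the values were seen. The submitters' processing notes name DESeq2, featureCounts 2.0.1, STAR 2.7.6a and Trim Galore 0.6.6, with the builds GRCm38 and mm10, for these libraries. For the Cre Control libraries they name HISAT2 2.2.1 in place of STAR, and which aligner lies behind the PT against PUT values is not given. The authors deposited mean TPM, log2 fold changes, test statistics (score values), p-values and adjusted p-values for Mutant against Control; per the file headers the PT against PUT table gives a base mean (a signal, the mean of normalised counts) in place of TPM. The authors also deposited counts per repeat family and library (1794698 to 2245124 each). In the first table the log2 fold change is log2 of Mutant over Control mean TPM, each plus 1, within 4.79e-08, so the estimate used is the deposited statistic times its SE. Adjusted p-values are the authors', over all genes, with a threshold of 0.05. Nothing was refitted. Counting and adjustment code was tested on simulated data. Copies were found with BLAST 2.17.0 against GENCODE M21, in which all 72 members were matched. Named genes are, per table, the 5 highest and 5 lowest called members, the 4 highest and 4 lowest TPM, Mdm2 binders, X-linked and Diamond-Blackfan genes, called paralogs and missed genes, and the 3 highest and 3 lowest called of each other list. Others, the genes of each role group and of large copies among them, were chosen after their values were seen. Some genes are not reported here, and the figures that name each gene on an axis leave them out. Alternatives were other thresholds, members, centring and adjustment backgrounds.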

Additional observations from a re-analysis of the deposited data

How the results depend on the processing

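No paired analysis was possible because the gene tables hold comparisons and no values per library; for the same reason no library could be left out in turn. For Mutant against Control, 2 members were lower at a threshold of 0.01, in place of 4, and 1 was lower among the 52 members that hold at least 90% of their family's Control TPM, an alternative chosen after seeing the data. With fewer genes or a stricter limit fewer calls are possible by construction. The count stayed at 4 with a threshold of 0.1, with the 8 further genes, after centring, after adjustment over genes of at least 10 TPM alone and by the direction of the TPM ratio. No member was higher under any of these. The share of TPM was 13.7% in Mutant and 13.7% in Control with the 8 further genes, 12.1% in Mutant and 12.1% in Control without genes named mt-, and 14.8% in Mutant and 14.7% in Control with the near-identical copies (added after seeing the data). For PT against PUT the higher count lay between 13 and 20 and the lower count between 34 and 51, all within 1.5 times of 19 and 46. The large minus small difference of medians lay between −0.03 and −0.01 for Mutant over Control, and between −0.01 and 0.05 for PT over PUT. Depth per library is unknown for genes, and the number of libraries behind each mean is not given.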

Other observations

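Rows named as ribosomal protein pseudogenes ranged up to a mean of 3786 TPM. Of 146 listed for Mutant against Control, 0 passed the adjusted test in the authors' deposited table (DESeq2 is named in the submitters' processing notes), and 2 were higher and 0 lower at an unadjusted p below 0.05. Their median level was 0.854 TPM, and the median SE of 1.77 was far above the 0.05 of the members. Of 282 listed for PT against PUT, 107 were higher (37.9%) and 104 lower (36.9%), with a median base mean of 780.4. The background over all genes was 25.1% higher and 22.1% lower. How far the values of these rows rest on reads of the members was not tested. Of 7 host genes of small nucleolar RNAs listed for PT against PUT, RNAs that guide the modification of ribosomal RNA, 4 were lower (Snhg5 at −1.42, Snhg8 at −0.93, Snhg12 at −0.69 and Gas5 at −0.67) and 1 was higher (Snhg1, 0.36). These host genes were not listed in the Mutant against Control table.

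The estimates for Mutant over Control varied with level across the 72 members, with Spearman's rho of 0.48 for estimate and mean TPM and Pearson's r of 0.35, as a description of genes that share the same libraries. Across 1639 genes of at least 100 TPM listed in both tables the same rho was 0.00354. The 20 members whose own row held less than 90% of their family's Control TPM had a median estimate of −0.06, and 3 of them were lower. The other 52 had a median of −0.01, and 1 was lower, Rpl10a. No test was made of this difference.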
